A study of Mus musculus with 6 samples.

Results

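The 34 genes described here are the chaperones, folding enzymes and stress regulators of the endoplasmic reticulum (ER), together with the transcription factor ATF4 and genes that it induces when amino acids run short or proteins misfold. They were chosen by name, as the probe sets whose single gene symbol in the annotation of the array is on the list, which gave 82 of 45101 probe sets and all 34 genes, of 18193 genes measured. The ER side holds 16 genes (40 probe sets) and the ATF4 side 18 genes (42 probe sets), and the sides are described apart.

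RNA of 2 kinds of cultured mouse T cell was measured on 6 expression arrays. The CD8aa Tregs are 3 samples titled 2D11 (replicates 1, 2 and 4), regulatory cells that, per the title of the series, see antigen on Qa-1, a non-classical MHC class I molecule. The OT-1 CD8aa+TCRab+ T cells are 3 samples titled OvacD8 (replicates 1, 2 and 3), whose transgenic receptor recognises a peptide of ovalbumin. Per the labels, both are T cell clones or lines cultured with their own antigen, antigen-presenting cells and IL-2. The labels give no genotype, strain, age or time after stimulation. Each group may be repeats of 1 clone and nothing says that its samples are separate cultures, so a p-value weighs a difference against the spread of these samples alone, possibly a technical one, and a difference may belong to the clone.

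Proteins made for the cell surface or for secretion fold in the ER, and when folding falls behind, sensors encoded by Ern1, Atf6 and Eif2ak3 start the unfolded protein response (UPR). ATF6 and XBP1, the factor that the Ern1 product activates, induce chaperones such as BiP, while the kinase encoded by Eif2ak3 slows translation and raises ATF4. ATF4 is also raised by the kinase that senses uncharged tRNA, and it induces genes for making and importing amino acids; T cells draw on both programmes when they grow and secrete after activation.

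Values are log2 and were centred before deposit, so that each probe set is expressed relative to its own median over the 6 arrays. They show differences between arrays, not how strongly a gene was expressed, and levels of different genes cannot be compared. A gene's value is the mean of its probe sets. Differences are CD8aa Treg minus OT-1 with the standard error (SE) of a limma fit (n = 3 per group), a gene passed at a Benjamini-Hochberg adjusted p under 0.05 over all 18193 genes, and a difference of 1 is 2-fold. In whole-culture RNA, fewer cells that express a gene and less RNA per cell cannot be told apart.

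OT-1 replicate 1 stood apart from OT-1 replicates 2 and 3. Over probe sets (not independent points) whose range reached 0.1, it correlated with them at r = 0.293 and 0.343, while they correlated with each other at 0.856. Its poly-A spike-in controls, bacterial RNAs added to follow labelling, averaged 0.44, which placed it with the CD8aa Tregs (-0.09 to 0.73) and not with OT-1 replicates 2 and 3 (-1.41 and -2.13). The 3' control probe set of Gapdh likewise stood at -0.17 on it, at -0.12 to 0.01 on the CD8aa Tregs and at 1.39 on OT-1 replicates 2 and 3. Counts of calls, and the members that turn on it, are therefore also given without that array, a fit in which the spike-in split and the groups coincide and cannot be told apart, and with spike-in side modelled, a fit that leaves OT-1 replicate 1 to carry the group difference, being the only OT-1 array on the side of the CD8aa Tregs.

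ER chaperones were lower in the CD8aa Tregs where they passed the test. Hspa5, which encodes BiP, the main Hsp70 chaperone of the ER, fell 1.48-fold, the disulfide isomerase gene Pdia6 1.40-fold, the lectin chaperone gene Calr 1.31-fold and the stress sensor gene Ern1 1.22-fold, the last at the threshold and not by the median of its probe sets. Of the 16 genes of the ER side, 0 were higher and 4 lower (1 and 7 at an unadjusted p under 0.05), against 3.30% and 3.37% of all genes tested. The difference was below 0 for 15 of the 16, with a median of -0.28, against a median of 0.01 over all genes, of which 36.3% were below 0 (46.3% of those whose range reached 0.1, as that of all 16 did). The groups did not overlap for 7 genes on the lower side and 1 on the higher side, against 10.7% and 12.6% of all genes. Flat genes dilute such shares: in a fit of only the genes whose range reached 0.1, 3 ER genes were lower and 0 higher, against 6.59% of genes in each direction. The lower count was 7 without OT-1 replicate 1 (9.40% of all genes), 1 without CD8aa Treg replicates 1 or 2 or OT-1 replicate 2, 2 without CD8aa Treg replicate 4 or OT-1 replicate 3, and 1 with spike-in side modelled (4.66% of all genes).

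**Figure D1:**
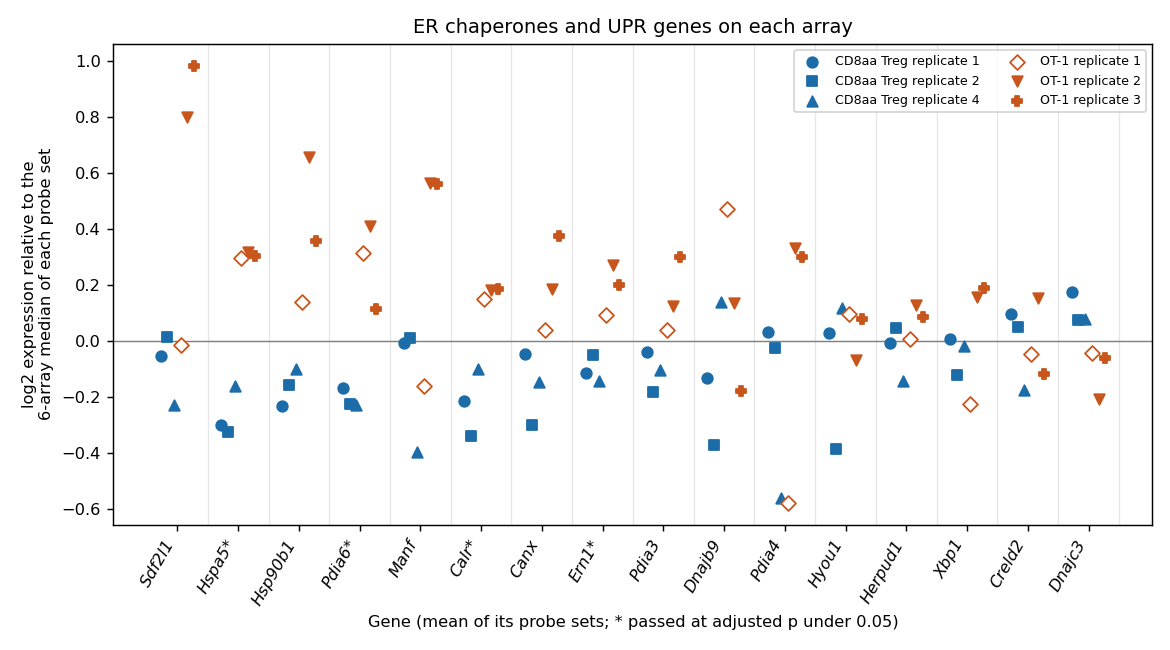
Centred log2 values (vertical axis) of the 16 ER genes on each of the 6 arrays, ordered by the group difference; blue symbols are CD8aa Treg arrays, orange symbols OT-1 arrays, the open diamond is OT-1 replicate 1, and asterisks mark the 4 genes that passed. The blue symbols lie under the orange ones for Hspa5, Pdia6, Calr and Ern1, while Sdf2l1 and Manf are high only on OT-1 replicates 2 and 3.

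Hspa5 stood at -0.30, -0.32 and -0.16 on CD8aa Treg replicates 1, 2 and 4, and at 0.30, 0.32 and 0.30 on OT-1 replicates 1, 2 and 3. The groups were separate and the 3 OT-1 arrays lay within a standard deviation (SD) of 0.01. That closeness is of the mean of 3 probe sets, which differed on the OT-1 arrays. OT-1 replicates 1, 2 and 3 stood at 0.22, 0.43 and 0.42 in 1 probe set and at 0.28, 0.53 and 0.42 in another. In the last they stood at 0.39, -0.01 and 0.08, and there the groups overlapped. The Hspa5 difference of -0.57 ± 0.05 (adjusted p = 0.00522) was the same sign in 3 of 3 probe sets (-0.74 to -0.37). It passed in all 6 fits that left out 1 array (highest adjusted p = 0.0366, without OT-1 replicate 2). It was the 1 ER gene that also passed with spike-in side modelled (-0.56, adjusted p = 0.0288).

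Among the other Hsp70 and Hsp90 chaperones of the ER, Hsp90b1 encodes GRP94, which folds integrins and Toll-like receptors. It stood at -0.23, -0.16 and -0.10 on CD8aa Treg replicates 1, 2 and 4, and at 0.14, 0.65 and 0.36 on OT-1 replicates 1, 2 and 3. The groups did not overlap, but the OT-1 arrays were spread, and the difference of -0.55 ± 0.14 did not pass (adjusted p = 0.103; -0.67, adjusted p = 0.0229 without OT-1 replicate 1). Hyou1, the nucleotide exchange partner of BiP, stood at -0.11 ± 0.15 (adjusted p = 0.823). Its groups overlapped, and its probe sets ran from -0.42 to 0.06.

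The disulfide isomerases form and reshuffle the disulfide bonds of new proteins. Pdia6, which acts beside BiP, stood at -0.17, -0.23 and -0.23 on CD8aa Treg replicates 1, 2 and 4, and at 0.31, 0.41 and 0.11 on OT-1 replicates 1, 2 and 3. The groups were separate, and the difference was -0.49 ± 0.08 (adjusted p = 0.0364), over probe sets at -0.75 and -0.22. In the latter probe set the groups overlapped, with OT-1 replicate 3 at -0.12, below every CD8aa Treg array (adjusted p = 0.704, tested singly). Pdia6 did not pass in 4 of the 6 fits without 1 array (highest adjusted p = 0.134, without CD8aa Treg replicate 2) or with spike-in side modelled (-0.52, adjusted p = 0.108), and it lay just outside the threshold with arrays centred on their medians (adjusted p = 0.0509). By its widest probe set it stood at -0.75 (adjusted p = 0.0109). Pdia3, the isomerase that works with calreticulin and in the loading of MHC class I, stood at -0.26 ± 0.08 (adjusted p = 0.149) with groups that did not overlap. Pdia4 stood at -0.20 ± 0.32 (adjusted p = 0.87), low on CD8aa Treg replicate 4 (-0.56) and OT-1 replicate 1 (-0.58) alike, and its sign turned with spike-in side modelled (0.39, adjusted p = 0.638). Pdia3 and Pdia4 each average a flat probe set (-0.02 and 0.005) with a wider one (-0.51 and -0.41).

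Calr and Canx encode calreticulin and calnexin, which hold glycoproteins by their sugars while they fold. Calr stood at -0.22, -0.34 and -0.10 on CD8aa Treg replicates 1, 2 and 4, and at 0.15, 0.18 and 0.19 on the OT-1 arrays. By gene value the OT-1 arrays agreed to an SD of 0.02 and the groups were separate. Single probe sets were less even, with OT-1 replicates 1, 2 and 3 at 0.13, 0.28 and 0.28 in the 1 that passed singly. The 3 probe sets gave differences between -0.45 and -0.34, with a gene value of -0.39 ± 0.06 (adjusted p = 0.0354). Calr did not pass in 4 of the 6 fits without 1 array (adjusted p up to 0.134, that without OT-1 replicate 2), nor did it with spike-in side modelled (-0.37, adjusted p = 0.141), quantile normalization, arrays centred on their medians or cross-hybridising probe sets left out (adjusted p = 0.0609, 0.0516 and 0.087). Canx stood at -0.36 ± 0.11 (adjusted p = 0.155); its groups did not overlap, with CD8aa Treg arrays between -0.30 and -0.05 and OT-1 arrays between 0.04 and 0.37.

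The co-chaperones gave mixed values. By gene value Sdf2l1, part of the BiP cycle and read by 1 probe set, spanned the widest range on the ER side, 1.21. Before averaging, single probe sets of Pdia4, Ern1 and Hyou1 spanned 1.85, 1.47 and 1.44. Sdf2l1 stood at -0.06, 0.01 and -0.23 on CD8aa Treg replicates 1, 2 and 4, and at -0.01, 0.80 and 0.98 on OT-1 replicates 1, 2 and 3. OT-1 replicate 1 thus lay among the CD8aa Tregs, and the difference did not pass (-0.68 ± 0.28, adjusted p = 0.285; -0.98, adjusted p = 0.00801 without that array; -0.08 with spike-in side modelled). Dnajb9, a J protein that holds the Ern1 product inactive, stood at -0.26 ± 0.21 (adjusted p = 0.675) and was highest on OT-1 replicate 1 (0.47). Dnajc3, a J protein of BiP that also restrains the kinase of translation, was the 1 ER gene with a difference above 0, at 0.21 ± 0.06 (adjusted p = 0.121), and its groups did not overlap. Its 5 probe sets ran from -0.19 to 0.45, and with probe sets tested singly, which was added after the data were seen, 1 of them passed at 0.43 (adjusted p = 0.00187), against 4.50% of all probe sets.

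Of the stress proteins released from the ER, Manf stood at -0.01, 0.01 and -0.40 on CD8aa Treg replicates 1, 2 and 4, and at -0.16, 0.56 and 0.56 on OT-1 replicates 1, 2 and 3. As for Sdf2l1, OT-1 replicate 1 fell within the range of the CD8aa Tregs (-0.45 ± 0.25, adjusted p = 0.437; -0.69, adjusted p = 0.0494 without that array). Creld2 showed no difference that could be detected (-0.01 ± 0.10, adjusted p = 0.981).

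Among the regulators, Ern1, which encodes the sensor IRE1, stood at -0.12, -0.05 and -0.15 on CD8aa Treg replicates 1, 2 and 4, and at 0.09, 0.27 and 0.20 on OT-1 replicates 1, 2 and 3. The groups were separate, but the call lay at the threshold (-0.29 ± 0.06, adjusted p = 0.0499). It passed in 1 of the 6 fits without 1 array, that without OT-1 replicate 1 (highest adjusted p = 0.168, without CD8aa Treg replicate 1). Its 5 probe sets ran from -0.92 to 0.01, and 0 of them passed singly (lowest adjusted p = 0.0981). The value hung on how they were combined: it was -0.06 (adjusted p = 0.746) by their median and -0.92 (adjusted p = 0.0872) by the widest. Ern1 stood at -0.19 (adjusted p = 0.145) with spike-in side modelled, and it also missed the threshold with arrays centred on their medians, robust variances, flat genes left out or cross-hybridising probe sets left out (adjusted p from 0.0531 to 0.0664). Xbp1 stood at -0.08 ± 0.13 (adjusted p = 0.858), low on OT-1 replicate 1 (-0.23) and high on OT-1 replicates 2 and 3 (0.15 and 0.19); the splicing of its RNA, by which the sensor acts on it, was not analysed here. Herpud1, a part of the machinery that removes misfolded proteins, stood at -0.11 ± 0.06 (adjusted p = 0.455).

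The upstream sequences of the 3 chaperone genes that passed are shown because each of them holds the ER stress response element (ERSE), the site through which ATF6 and XBP1 act. They are the 170 bases before the start site in RefSeq (GRCm38.p6), read along the gene, for Hspa5 (chr2:34771920-34772089, plus strand), Pdia6 (chr12:17266419-17266588, plus strand) and Calr (chr8:84846932-84847101, minus strand), with the fixed letters of the element in capitals. In Calr the element lies on the opposite strand and reads CGTGG before ATTGG.
Hspa5: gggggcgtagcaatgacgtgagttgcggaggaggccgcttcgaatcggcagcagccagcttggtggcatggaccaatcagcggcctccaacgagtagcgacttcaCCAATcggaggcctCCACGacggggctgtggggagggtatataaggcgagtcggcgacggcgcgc
Pdia6: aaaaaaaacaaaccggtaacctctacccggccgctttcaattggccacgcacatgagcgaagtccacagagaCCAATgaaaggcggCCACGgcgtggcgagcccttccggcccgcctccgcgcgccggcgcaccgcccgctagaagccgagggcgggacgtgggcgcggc
Calr: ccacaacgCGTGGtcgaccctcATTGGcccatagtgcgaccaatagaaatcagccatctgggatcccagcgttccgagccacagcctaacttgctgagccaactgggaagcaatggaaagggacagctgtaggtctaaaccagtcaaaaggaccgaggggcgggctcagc

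The letters searched were CCAAT, any 9 bases and CCACG on both strands, in the 250 bases before and 50 after each start site, as held for 31 of the 34 genes in the RefSeq promoter table used here. It stood in 7 of the 14 ER genes with a window and in 0 of 17 genes of the ATF4 side, against 0.119% of 32851 windows (39 windows). The ER list was chosen by name and holds genes that ATF6 and XBP1 induce, so this excess was built into it and is not a result of these arrays. The first shares are of genes and the last is of windows. In Hspa5 it lay at -65 to -47 from the start site, in Pdia6 at -98 to -80 and in Calr at -162 to -144. The elements of the 7 genes, 2 of them in Hsp90b1, are shown side by side to show the fixed ends and the free middle, each read from its CCAAT end.
Hspa5: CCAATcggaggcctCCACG
Pdia6: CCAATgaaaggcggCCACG
Calr: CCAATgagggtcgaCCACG
Hsp90b1: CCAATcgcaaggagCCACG
Hsp90b1: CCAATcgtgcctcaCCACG
Canx: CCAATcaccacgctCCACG
Creld2: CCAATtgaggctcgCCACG
Dnajc3: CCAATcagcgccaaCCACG

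Of these 7 genes, Hspa5, Pdia6 and Calr passed as lower, 6 had a difference below 0 and the median was -0.39. The 7 ER genes with a window and no such match had a median of -0.26, with 7 of 7 below 0. Over all genes 3.37% passed as lower and 36.3% were below 0. Beyond the members, 13 other measured genes held the element, and their median difference was 0.01. Of those 13, 3 were below 0, 0 passed as lower and 1, the adenylyl cyclase gene Adcy3, passed as higher (0.36 ± 0.07, adjusted p = 0.0478; 3.30% of all genes). Herpud1 held the related element ATTGG, any 1 base and CCACG, found in 0.0365% of windows, at -52 to -42, as ATTGGgCCACG. A match is a match of letters and does not show that a factor was bound.

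Some control probe sets on the array also differed with the groups. The mouse repeat controls B1 and B2 stood at 0.44 to 0.81 and 0.09 to 0.12 on the CD8aa Tregs, against -0.99 to -0.44 and -0.30 to -0.09 on the OT-1 arrays, with no overlap. The 5' control of beta-actin, less its 3' control, which follows RNA integrity and labelling, stood between -0.19 and 0.12 on the CD8aa Tregs, at -0.09 on OT-1 replicate 1 and at 0.38 and 0.32 on OT-1 replicates 2 and 3. For Gapdh the same gap overlapped between the groups. It stood at 0.15, -0.27 and -0.20 on CD8aa Treg replicates 1, 2 and 4, and at 0.02, 0.14 and 0.22 on OT-1 replicates 1, 2 and 3. The part of these signs in the ER differences was not tested.

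Markers of other cells that the cultures could hold moved with the groups in part. Of 9 macrophage and monocyte markers, 0 passed in limma (0 higher and 2 lower at an unadjusted p under 0.05), and their summed value ran from -1.26 to -0.01 on the CD8aa Treg arrays and from 1.35 to 4.59 on the OT-1 arrays. The lysosomal gene Cd68 stood at 3.34 and 3.44 on OT-1 replicates 2 and 3, 0.48 on OT-1 replicate 1 and -0.71 to -0.48 on the CD8aa Tregs, while Csf1r was high on OT-1 replicate 1 alone (1.17, against -0.08 to 0.003). Lyz2 was highest on OT-1 replicate 1 (2.70) and lowest on OT-1 replicates 2 and 3 (-1.91 and -2.82). Cd14 lay just outside the threshold (-0.81 ± 0.16, adjusted p = 0.0528), with groups that did not overlap. It stood between -0.35 and -0.20 on the CD8aa Tregs, and at 0.20, 0.66 and 0.75 on OT-1 replicates 1, 2 and 3. Of the 9 differences, 3 lay below 0 and 6 above. The defining genes Adgre1, Mrc1 and Marco spanned less than 0.1. Of 7 dendritic cell markers, Itgax passed as lower (-5.07 ± 0.78, adjusted p = 0.029), while the other 6 lay above 0 (1 higher and 1 lower at an unadjusted p under 0.05). Among those 6, Batf3 stood at 1.34 ± 0.36 (adjusted p = 0.117) with groups that did not overlap. The summed value, from -2.21 to -0.75 on the CD8aa Tregs and from -0.17 to 3.06 on the OT-1 arrays, thus followed Itgax; Zbtb46, Cd209a and Xcr1 spanned less than 0.1. Of 7 plasma cell markers, which are of interest because plasma cells are rich in ER, 0 passed in limma (0 higher and 2 lower at an unadjusted p under 0.05). Their sum ran from -0.52 to -0.24 on the CD8aa Tregs and from 0.38 to 2.09 on the OT-1 arrays, mostly through Prdm1 and Irf4, which activated T cells also use, while Jchain, Tnfrsf17 and Mzb1 spanned less than 0.1. Of 8 B cell markers (sums from -0.24 to 0.17 over all arrays) and 3 erythroid markers (sums from -0.05 to 0.11), 0 passed in limma and 0 at an unadjusted p under 0.05. Because centring removed levels, a flat marker may be absent or evenly present, and the part of these cells in the ER differences was not tested.

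Of 9 T cell markers, Cd8b1 (-2.36 ± 0.11) and Cd247 (-0.90 ± 0.11) were lower in the CD8aa Tregs and 0 were higher (3 and 2 at an unadjusted p under 0.05). The summed value ran from -2.06 to -0.71 on the CD8aa Tregs and from 0.85 to 2.06 on the OT-1 arrays. Cd8b1, with the widest range of the 9 (2.65), weighed most in that sum, which was not computed without it. The sum therefore does not show a shift shared by the 9 genes. Of the 9 differences, 5 lay below 0 and 4 above. Both groups are named CD8aa, yet Cd8b1, the gene of the CD8 beta chain, differed between them. Cd8a stood at -0.26 ± 0.11 (adjusted p = 0.303) and Cd3e at 0.08. Since levels are removed, these values cannot show whether T cell genes were high in both groups.

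The ATF4 side held 1 call in each direction. Stc2, which encodes the secreted glycoprotein stanniocalcin 2, rose 2.64-fold in the CD8aa Tregs, and Asns, encoding asparagine synthetase, fell 1.24-fold. Of the 18 genes, 1 was higher and 1 lower (4 and 4 at an unadjusted p under 0.05), against 3.30% and 3.37% of all genes, and 10 differences lay above 0 and 8 below. The median was 0.03, against 0.01 over all genes. The groups did not overlap for 3 genes on the higher side and 4 on the lower side, against 12.6% and 10.7% of all genes. Without OT-1 replicate 1 the counts were 4 higher (Ddit3, Phgdh, Shmt2 and Stc2) and 3 lower (Atf4, Asns and Mthfd2), against 7.80% and 9.40% of all genes; without any other array 0 were higher and at most 1 was lower. With spike-in side modelled Stc2 alone passed as higher (2.83% of all genes) and 0 as lower.

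**Figure D2:**
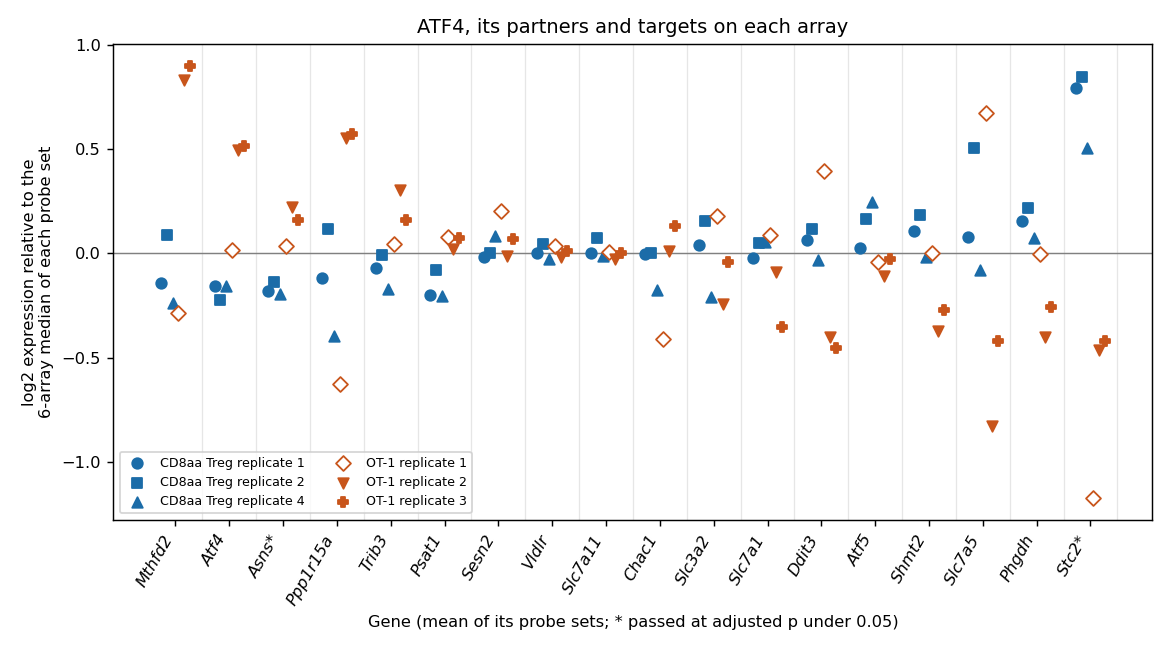
Centred log2 values (vertical axis) of the 18 ATF4-side genes on each of the 6 arrays, ordered by the group difference, with symbols as for the ER genes; asterisks mark the 2 genes that passed. For Mthfd2, Ppp1r15a, Ddit3 and Slc7a5 the open diamond of OT-1 replicate 1 lies on the far side of 0 from OT-1 replicates 2 and 3, and for Stc2 all 3 OT-1 arrays lie below all 3 CD8aa Treg arrays.

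Of the factors, Atf4 itself stood at -0.15, -0.22 and -0.16 on CD8aa Treg replicates 1, 2 and 4, and at 0.01, 0.50 and 0.51 on OT-1 replicates 1, 2 and 3; it is shown by array because the side is named for it. The groups did not overlap, but OT-1 replicate 1 lay between them, and the difference did not pass (-0.52 ± 0.15, adjusted p = 0.137; -0.68, adjusted p = 0.0012 without that array; -0.19, adjusted p = 0.0752 with spike-in side modelled). Its 3 probe sets gave -0.97, -0.59 and 0.002, the last of them flat on all arrays. ATF4 is raised largely through translation of its RNA, which arrays do not measure.

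Atf5, a related factor, stood at 0.20 ± 0.06 (adjusted p = 0.166) with groups that did not overlap. Ddit3, which encodes CHOP, a factor of prolonged stress, lay between -0.03 and 0.12 on the arrays of CD8aa Tregs, at 0.40 on OT-1 replicate 1 and at -0.40 and -0.45 on OT-1 replicates 2 and 3. The OT-1 arrays thus lay on both sides of the CD8aa Tregs (0.20 ± 0.25, adjusted p = 0.808; 0.48, adjusted p = 0.01 without OT-1 replicate 1; -0.35, adjusted p = 0.0698 with spike-in side modelled).

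Ppp1r15a encodes GADD34, the phosphatase subunit that restores translation. It stood at -0.12, 0.12 and -0.40 on CD8aa Treg replicates 1, 2 and 4, and at -0.62, 0.55 and 0.58 on OT-1 replicates 1, 2 and 3. OT-1 replicate 1 was the lowest of the 6 arrays and the other OT-1 arrays the highest (-0.30 ± 0.38, adjusted p = 0.818; -0.70, adjusted p = 0.0644 when that array was left out; 0.49 with spike-in side modelled). Trib3, a pseudokinase that dampens ATF4, stood at -0.25 ± 0.08 (adjusted p = 0.174) with groups that did not overlap.

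Among enzymes of amino acid synthesis, Asns stood at -0.18, -0.14 and -0.19 on CD8aa Treg replicates 1, 2 and 4, and at 0.03, 0.23 and 0.16 on OT-1 replicates 1, 2 and 3. The groups were separate, at -0.31 ± 0.05 (adjusted p = 0.0401), with probe sets at -0.39 and -0.23. Neither probe set passed singly (adjusted p = 0.325 and 0.358). In the latter the groups overlapped, with CD8aa Treg replicate 4 at 0.01 and OT-1 replicate 2 at -0.01. Asns passed in 1 of the 6 fits without 1 array, that without OT-1 replicate 1 (highest adjusted p = 0.145, without CD8aa Treg replicate 1), and not with spike-in side modelled (-0.21, adjusted p = 0.0724), arrays centred on their medians (adjusted p = 0.0567) or 1 probe set in place of both (-0.39, adjusted p = 0.298 by the widest).

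Neither enzyme of serine synthesis passed. Phgdh, the first of the pathway, stood at 0.37 ± 0.11 (adjusted p = 0.155), with 4 of 4 probe sets above 0 (0.15 to 0.56). All 4 are probe sets that may cross-hybridise, so Phgdh has no value in the fit that left such probe sets out. Psat1, the next, stood at -0.22 ± 0.04 (adjusted p = 0.0559), with probe sets at -0.25 and -0.19. For neither gene did the groups overlap, on opposite sides. The difference between these genes was not tested.

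The mitochondrial one-carbon enzymes take up the carbon of serine, and neither passed. Mthfd2 stood at -0.14, 0.09 and -0.24 on CD8aa Treg replicates 1, 2 and 4, and at -0.29, 0.83 and 0.90 on OT-1 replicates 1, 2 and 3. OT-1 replicate 1 was below every CD8aa Treg array and the other OT-1 arrays far above (-0.58 ± 0.36, adjusted p = 0.509; -0.96, adjusted p = 0.0103 without OT-1 replicate 1; 0.19 with spike-in side modelled). Shmt2 stood at 0.31 ± 0.11 (adjusted p = 0.232; 0.42, adjusted p = 0.033 without OT-1 replicate 1; 0.09 with spike-in side modelled).

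Of the 4 amino acid transporters, 0 passed in limma, nor did any reach an unadjusted p under 0.05. Slc7a5, which imports large neutral amino acids, stood at 0.08, 0.51 and -0.08 on CD8aa Treg replicates 1, 2 and 4, and at 0.68, -0.83 and -0.42 on OT-1 replicates 1, 2 and 3. The highest and the lowest array of this gene were both OT-1 (0.36 ± 0.43, adjusted p = 0.801; 0.79, adjusted p = 0.11 when OT-1 replicate 1 was left out; -0.51 with spike-in side modelled). Its partner chain Slc3a2 stood at 0.03 ± 0.15 and was likewise highest on OT-1 replicate 1 (0.18) and lowest on OT-1 replicate 2 (-0.24). Slc7a1, for arginine and lysine, stood at 0.15 ± 0.12 (adjusted p = 0.673), and Slc7a11, for cystine, at 0.03 ± 0.03 with a range of 0.10 over the 6 arrays.

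Stc2 showed the widest range of all 34 genes, 2.02. It stood at 0.80, 0.85 and 0.51 on CD8aa Treg replicates 1, 2 and 4, and at -1.17, -0.46 and -0.42 on OT-1 replicates 1, 2 and 3. Every CD8aa Treg array was above every OT-1 array, and OT-1 replicate 1 was the lowest. The difference was 1.40 ± 0.24 (adjusted p = 0.0379), 3 of 3 probe sets lay above 0 (1.13 to 1.69) and 1 passed singly. Stc2 passed without OT-1 replicate 1 (1.16, adjusted p = 0.00813) and with spike-in side modelled (1.89, adjusted p = 0.00873), and in no fit without another array (highest adjusted p = 0.14, without CD8aa Treg replicate 2). It did not pass with arrays centred on their medians, the median of its probe sets or the widest (adjusted p = 0.0513, 0.0984 and 0.252). The other stress effectors did not pass: Chac1, which degrades glutathione, stood at 0.03 ± 0.16, Sesn2, an inhibitor of mTORC1, at -0.06 ± 0.06, and Vldlr, a lipoprotein receptor, at -0.01 ± 0.03 with a range of 0.07.

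The upstream sequence of Asns is shown because it was the 1 gene of the ATF4 side that passed and held the ATF4 element TGATGNAA in its window. It is given as the 170 bases before the start site (chr6:7693210-7693379, minus strand, GRCm38.p6), with the element in capitals at -23 to -16.
Asns: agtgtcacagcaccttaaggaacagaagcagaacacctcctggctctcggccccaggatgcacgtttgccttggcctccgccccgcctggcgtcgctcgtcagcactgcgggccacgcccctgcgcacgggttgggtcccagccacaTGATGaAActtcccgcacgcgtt

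That element, searched on both strands, was found in 3.97% of all windows and in 5 of 17 genes of the ATF4 side with a window (Trib3, Chac1, Asns, Slc7a11 and Vldlr), as well as in Herpud1. The 5 genes had a median difference of -0.01, and the 12 without a match 0.09. The element is short, so a match alone says little.

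Set against each OT-1 array in turn, the CD8aa Treg mean of the ER genes gave a median difference of -0.16 from OT-1 replicate 1 and -0.36 from each of OT-1 replicates 2 and 3. It lay below these arrays for 11, 15 and 13 of the 16 genes. On the ATF4 side the median difference of the CD8aa Treg mean from OT-1 replicates 1, 2 and 3 was -0.05, 0.04 and 0.01, below 0 for 10, 7 and 9 of the 18 genes.

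Of 13 ER genes on which the CD8aa Treg mean lay below OT-1 replicates 2 and 3 alike, it lay above OT-1 replicate 1 for 3 (Pdia4, Manf and Xbp1). On the ATF4 side OT-1 replicate 1 went the other way for 3 of 7 such genes (Ppp1r15a, Chac1 and Mthfd2) and, of 9 genes on which the CD8aa Treg mean lay above OT-1 replicates 2 and 3, for 4 (Ddit3, Slc7a5, Slc3a2 and Slc7a1). Over all genes spanning at least 0.1 the shares were 30.4% and 24.0%. OT-1 replicate 1 lay nearer to the CD8aa Treg mean than to that of OT-1 replicates 2 and 3 for 9 of 16 ER genes and 13 of 18 ATF4-side genes, against 54.0% of all genes spanning at least 0.1. The widest gaps between OT-1 replicate 1 and the mean of the other OT-1 arrays were those of Slc7a5 (1.30), Ppp1r15a (-1.19) and Mthfd2 (-1.16), and on the ER side those of Sdf2l1 (-0.90), Pdia4 (-0.89) and Manf (-0.72). For Hspa5 and Calr the gaps of the gene values were -0.01 and -0.03, but their probe sets went both ways. In the 2 Hspa5 probe sets that passed singly, OT-1 replicate 1 lay below both other OT-1 arrays, and in the last it lay above both. In the Calr probe set that passed singly it lay below both (0.13 against 0.28 and 0.28). In another Calr probe set it lay above both (0.17 against 0.14 and 0.06).

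**Figure D3:**
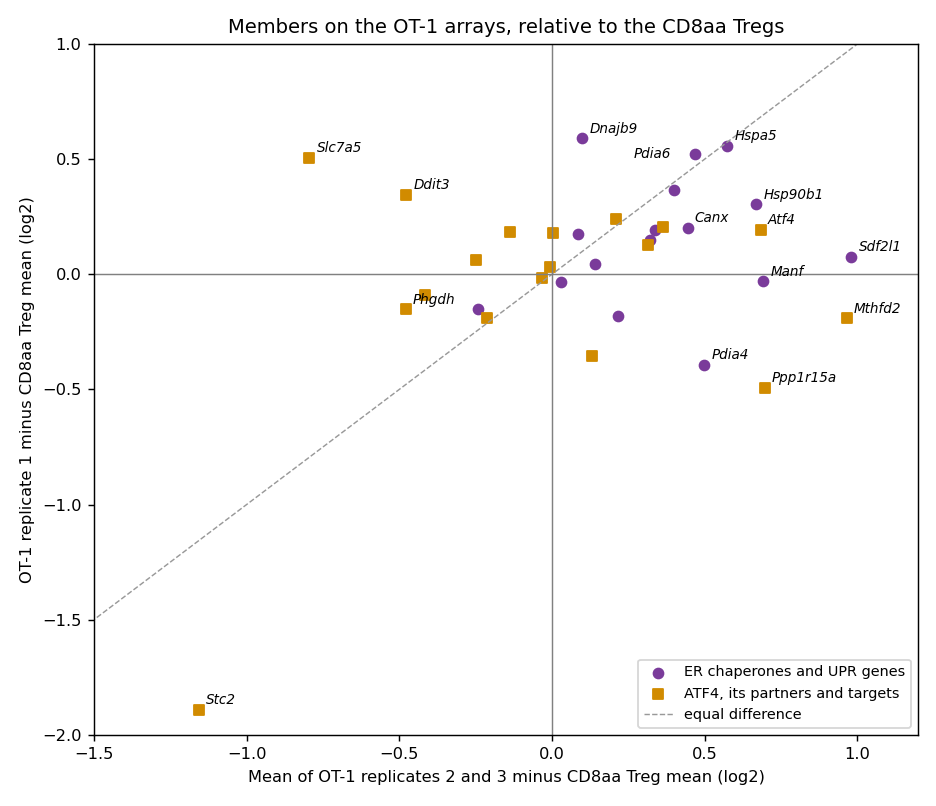
Each of the 34 genes by its log2 difference from the CD8aa Treg mean, on OT-1 replicates 2 and 3 averaged (horizontal axis) and on OT-1 replicate 1 (vertical axis); circles are ER genes, squares ATF4-side genes, and the dashed line marks an equal difference. As means of their probe sets, Hspa5 and Pdia6 lie near the line. Slc7a5, Ddit3, Ppp1r15a, Mthfd2 and Pdia4 lie in the quadrants of opposite sign.

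**Figure D4:**
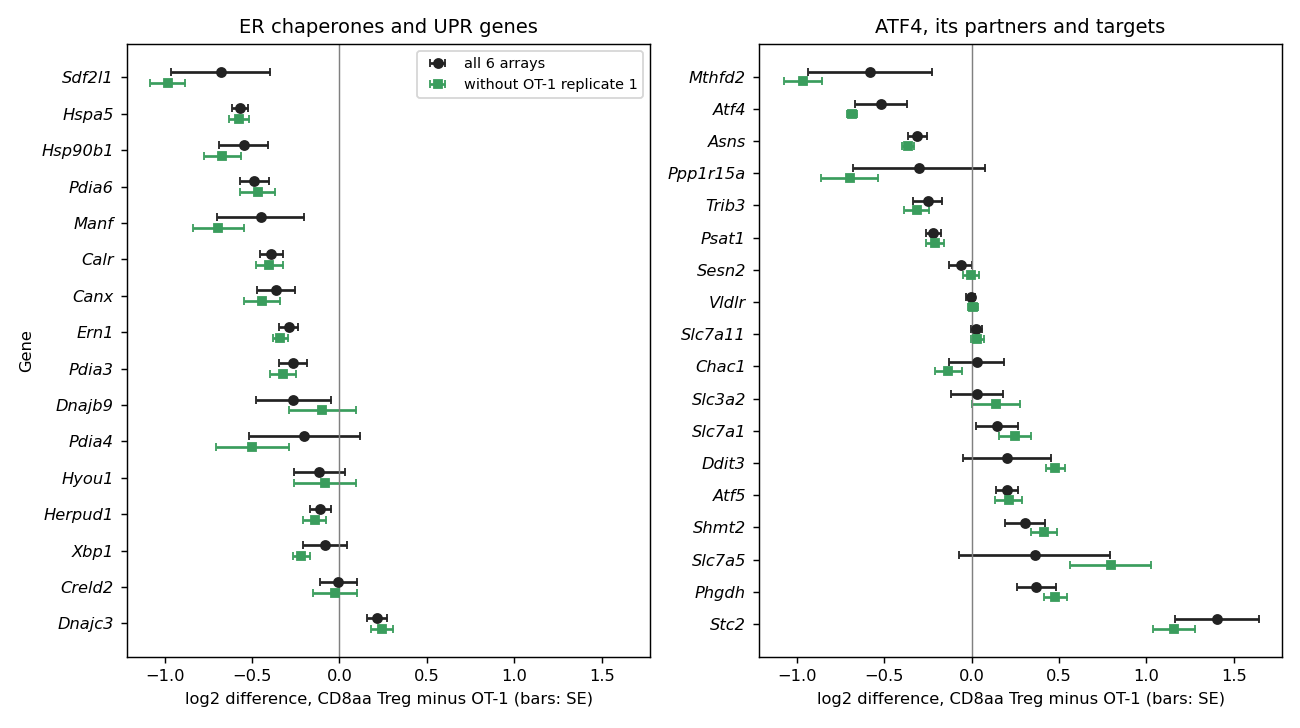
Log2 difference, CD8aa Treg minus OT-1, with its SE (horizontal axis) for the 16 ER genes (left) and the 18 ATF4-side genes (right), from the fit of all 6 arrays (black circles) and the fit without OT-1 replicate 1 (green squares). For Sdf2l1, Manf, Atf4, Mthfd2, Ddit3 and Slc7a5 the difference lies further from 0 and its SE is smaller without that array. Hspa5 and Calr, plotted as means of their probe sets, hardly move.

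Other genes of these pathways were counted in lists of the pathway, to be read against the share of all genes called: 3.30% higher and 3.37% lower in the fit of all arrays, 7.80% and 9.40% without OT-1 replicate 1, and 2.83% and 4.66% with spike-in side modelled. Of 39 other ER folding and secretion genes, 2 were higher and 5 lower (2 and 13 without OT-1 replicate 1; 2 and 1 with spike-in side modelled), with a median of -0.13. Lman1, a cargo receptor for glycoproteins, fell by 0.71 ± 0.12 on the log2 scale (adjusted p = 0.0358), Ssr2, of the translocon-associated complex, by 0.59 ± 0.11 (adjusted p = 0.0433) and Serp1, which stabilises membrane proteins in stress, by 0.44 ± 0.08 (adjusted p = 0.04). The Hsp70 relative Hspa13 rose by 1.16 ± 0.12 (adjusted p = 0.00911; probe sets from -0.13 to 2.61), as did Stt3a, the catalytic subunit of an oligosaccharyltransferase, by 0.18 ± 0.03 (adjusted p = 0.0371). Hspa13 passed in all 6 fits without 1 array, Stt3a in 2 and each of the other named genes in 1. The probe sets of Lman1 ran from -1.31 to -0.002.

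Of 19 genes of ER-associated degradation, 0 were higher and Edem1, a lectin that picks out misfolded glycoproteins, fell by 0.94 ± 0.18 (adjusted p = 0.0477; 4 and 2 before adjustment, at p under 0.05; 1 and 3 without OT-1 replicate 1; 0 and 1 with spike-in side modelled), with a median of 0.08. Of 20 other stress sensors and regulators, 0 were higher and 2 lower (3 and 3 before adjustment, at p under 0.05; 2 and 3 without OT-1 replicate 1; 1 and 2 with spike-in side modelled). Atf6 stood at -0.37, -0.29 and -0.37 on CD8aa Treg replicates 1, 2 and 4, and at 0.25, 0.81 and 0.56 on OT-1 replicates 1, 2 and 3. All OT-1 arrays lay above all CD8aa Treg arrays, and Atf6 fell by 0.89 ± 0.15 (adjusted p = 0.0349; probe sets from -1.81 to -0.21). Creb3l1, an ATF6 relative, fell by 0.45 ± 0.04 (adjusted p = 0.00544). Creb3l1 passed in all 6 fits without 1 array, while Edem1 and Atf6 passed only in that without OT-1 replicate 1 (highest adjusted p = 0.163 and 0.129, both without CD8aa Treg replicate 1).

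Of 28 other ATF4 targets, 0 were higher and 1 lower (2 and 4 before adjustment, at p under 0.05; 0 and 5 without OT-1 replicate 1; 1 and 3 with spike-in side modelled). That 1 was Eif4ebp1, which encodes a repressor of cap-dependent translation. It stood at -1.24, -1.05 and -0.87 on CD8aa Treg replicates 1, 2 and 4, and at 0.87, 1.66 and 1.80 on OT-1 replicates 1, 2 and 3. The groups were wide apart (-2.49 ± 0.28, adjusted p = 0.0116), although its 3 probe sets ran from -4.55 to -0.01, and it passed in 3 of the 6 fits without 1 array (highest adjusted p = 0.0612, without OT-1 replicate 2).

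Of 19 aminoacyl-tRNA synthetases, which charge tRNA, 3 were higher and 1 lower (5 and 2 without OT-1 replicate 1; 1 and 0 with spike-in side modelled). Lars stood at 0.89 ± 0.14, Hars at 0.50 ± 0.05, Farsa at 0.34 ± 0.05 (probe sets from -0.36 to 1.00) and Sars at -0.62 ± 0.10 (adjusted p = 0.0335, 0.0104, 0.0323 and 0.0324). Of these, Hars passed in 5 of the 6 fits without 1 array and the other named genes in 1. The 2 probe sets of Hars stood at 0.02 and 0.99.

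Of 14 further genes of serine and one-carbon metabolism, 2 were higher and 0 lower (5 and 0 before adjustment, at p under 0.05; 4 and 1 without OT-1 replicate 1; 0 and 0 with spike-in side modelled): Ahcy at 0.29 ± 0.05 (adjusted p = 0.039) and Tyms at 0.27 ± 0.04 (adjusted p = 0.0299), each in 2 of the 6 fits without 1 array. Of 24 other amino acid transporters, 0 were higher and 0 lower by limma (2 and 2 before adjustment, at p under 0.05; 2 and 1 without OT-1 replicate 1; 0 and 1 with spike-in side modelled).

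The heat shock genes of the cytosol answer misfolding outside the ER. Of 24, 1 was higher and 2 lower (10 and 3 without OT-1 replicate 1, where 7.80% and 9.40% of all genes passed; 0 and 1 with spike-in side modelled). Bag3, an Hsp70 cofactor, fell by 3.19 ± 0.08 (adjusted p = 0.000211), from -1.54 to -1.504 on the CD8aa Treg arrays against 1.504 to 1.82 on the OT-1 arrays, and passed in all 6 fits without 1 array. Dnajb1 fell by 0.44 ± 0.07 (adjusted p = 0.0317) and Stip1 rose by 0.29 ± 0.05 (adjusted p = 0.0403), in 1 and 2 of those fits.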

How the data were processed

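The deposited log2 values were made by the authors with RMA, per the submitters' processing notes; the version, the log base and the centring of every probe set on its median over the 6 arrays (within 5.0e-07 of 0) are not given in the sources used here and were read from the values. A base of 2 fits a widest range of 11.37, which natural logs of 16-bit scans (at most 11.09) could not reach. Labels name total RNA, an RNeasy extraction, Ovation V2 amplification and biotin.

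Control probe sets (64), those with several symbols (932) and those not listed in the annotation (9160) were left out, and the other 34945 were averaged per gene. Groups and replicate numbers came from titles. limma 3.58.1 (R 4.3.3, lmFit and eBayes, two-sided, prior degrees of freedom 0.98) was fitted on all 18193 genes with Benjamini-Hochberg adjustment. Tested on simulated arrays of these 18193 genes, it called 73% of 100 genes changed by 1 and 92% of 100 changed by 2 on the log2 scale, with 8 false calls. The changed genes were drawn from those whose range reached 0.1, and the noise was independent between arrays, without the split among the OT-1 arrays. Changes under 1, such as those of every member but Stc2, were not simulated. The number of arrays limits the precision. Probe sets that share sequence with relatives, which the annotation cannot show, are uncertain.

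The members and lists were chosen with earlier results of these data known. Values by array are given for members that passed or spanned at least 1, and up to 3 passing genes per direction are named from each list; array values of other genes were added after they were seen. The fit was repeated without each array, with a replicate block, weights for arrays, quantile normalization or median centring, several rules for combining or filtering probe sets, robust variances, a 2-fold threshold, and a term for spike-in side (27 control probe sets). Promoter windows are RefSeq's (GRCm38.p6).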

Additional observations from a re-analysis of the deposited data

How the results depend on the processing

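Over the 6 fits that left out 1 array, the ER side held 1 to 7 lower and 0 higher genes, with a median between -0.37 and -0.27, and the ATF4 side 0 to 4 higher and 0 to 3 lower, with a median between -0.01 and 0.07; the highest counts were those without OT-1 replicate 1. The replicate numbers 1 and 2 are shared by both groups without the labels saying that they pair samples (r of their deviations 0.001 and 0.172). With replicate number as a block, 0 genes passed on the ER side and 0 higher and 0 lower on the ATF4 side. That fit leaves fewer degrees of freedom and takes the difference from replicates 1 and 2 alone. CD8aa Treg replicate 4 and OT-1 replicate 3 share their numbers with no other array. Its 0 calls therefore cannot show that differences are absent. Lower ER genes numbered 1 with arrays centred on their medians, 2 without probe sets that may cross-hybridise (where 1 was higher), 1 with spike-in side modelled and 0 at a difference of at least 1. Probe sets tested singly, added after the data were seen, gave 1 higher ER gene and 0 lower ATF4-side genes. Array weights, whose estimation did not converge, gave 1 higher and 11 lower on the ER side and 6 and 6 on the ATF4 side. The ER median was -0.45 with the widest probe set and -0.16 with spike-in side modelled, where that of the ATF4 side was -0.046. On the ATF4 side, 0 were higher with centred arrays, the widest probe set or the median of probe sets, and lower genes numbered 2 with quantile normalization and 0 with the widest probe set, without cross-hybridising probe sets, with the split or at a difference of at least 1. Of 878 values recomputed for 55 genes under 16 settings, 636 kept direction and side of the threshold, 30 newly passed, 183 no longer passed and 29 changed sign; none of the genes that changed sign had passed. With spike-in side modelled the sign turned for Pdia4 (0.39), Creld2 (0.036), Manf (0.031), Xbp1 (0.18), Ddit3 (-0.35), Ppp1r15a (0.49), Mthfd2 (0.19), Slc7a5 (-0.51), Slc3a2 (-0.18) and Slc7a1 (-0.061). With the replicate block it turned for Pdia4 (0.13), Creld2 (0.019), Ppp1r15a (0.036) and Vldlr (0.012). With array weights it turned for Creld2 (0.17), Dnajb9 (0.030) and Chac1 (-0.13), with quantile normalization for Chac1 (-0.0072) and Slc3a2 (-0.013), and with the widest probe set for Dnajc3 (-0.19). Over the fits without 1 array, differences of both signs were found for Creld2 (-0.063 to 0.075), Hyou1 (-0.21 to 0.038), Chac1 (-0.13 to 0.14), Slc3a2 (-0.072 to 0.14) and Vldlr (-0.024 to 0.012). The cause was not tested. Signal over background is not in the values used here, so dim probe sets could not be told from steady ones.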
